A study of Homo sapiens with 6 samples.

Results

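The nuclear genes for the subunits of the mitochondrial respiratory chain were followed in KYSE150 cells, an established cell line from a human squamous cell carcinoma of the esophagus (ESCC). The genes were taken by name: protein-coding genes whose symbols start with NDUFA, NDUFB, NDUFC, NDUFS, NDUFV, UQCR, ATP5F1, ATP5M or ATP5P, with SDHA to SDHD, CYC1, CYCS and the COX4 to COX8 subunits. This gave 99 of the 67140 gene identifiers in the count table. Of these, 87 encode subunits of complexes I to V (37, 4, 9, 19 and 18 genes in that order). The remaining 12 are the 8 complex I assembly factors NDUFAF1 to NDUFAF8, which the prefix NDUFA also takes, the carrier CYCS, the UQCRH copy UQCRHL and the read-through genes ATP5MF-PTCD1 and NDUFC2-KCTD14. NDUFA4 and NDUFA4L2 were counted with complex IV, where NDUFA4 is placed by structure.

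RNA was sequenced from 3 samples carrying a control hairpin (shCtrl) and 3 carrying a hairpin against the long noncoding RNA AC007128.1 (shAC007128.1), to learn which genes change when this RNA is depleted. Both groups were grown in RPMI 1640 with 10% fetal bovine serum, and per the study's methods stable lines were made by lentivirus and puromycin selection. Each group rests on 1 hairpin, and the labels do not say whether the samples came from separate cultures, so the p-values measure only the spread between these samples, which may be technical. In these bulk samples, fewer cells of a type and less RNA per cell cannot be told apart.

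Total counts were 55764405 to 78610457 per sample, at which 3 counts correspond to 0.0373 to 0.0546 CPM (counts scaled to library size with edgeR's TMM factors). The gene that holds the hairpin's site, ENSG00000229970, had counts of 69, 33 and 53 in shCtrl and 18, 37 and 15 in shAC007128.1 replicates 1, 2 and 3. These groups overlapped, and the log2 fold change of -0.77 (standard error 0.51) did not pass edgeR's quasi-likelihood test (adjusted p = 0.271). The study itself measured AC007128.1 by qPCR and reported that the hairpin lowered it. The squamous markers KRT5, KRT14, KRT6A, KRT17, TP63 and DSG3 were expressed in all 6 samples, with KRT14 and KRT6A higher in shAC007128.1 by 2.28 and 2.46 on the log2 scale and DSG3 at -1.09, and their part in the results was not tested. Among 11 markers of leukocytes, fibroblasts and endothelium, COL1A1 reached 13.3 to 18.6 CPM and VWF 0.231 to 2.45 CPM, while the leukocyte marker PTPRC had at most 0.164 CPM.

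The respiratory chain sits in the inner mitochondrial membrane. Complex I takes electrons from NADH and complex II from succinate, complex III passes them to cytochrome c, and complex IV hands them to oxygen. The protons pumped by complexes I, III and IV drive complex V, the ATP synthase. All subunits of complex II and most of the others are encoded in the nucleus, while a few core subunits come from the mitochondrial genome, so the supply of each complex depends on both.

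Subunit genes were higher in shAC007128.1 cells far more often than lower. Of the 87 subunits, 82 passed the filter on low counts. Of these, 40 rose and 7 fell at an adjusted p of at most 0.05 (edgeR's quasi-likelihood test, Benjamini-Hochberg over all 19254 genes tested), and 35 were not called. The 40 that rose are 48.8% of the tested subunits, against 21.0% of all genes tested, and the 7 that fell are 8.54%, against 19.8%. Subunits are highly expressed, so protein-coding genes with a mean of at least 10 CPM are a nearer background: of 9702 such genes 34.5% rose and 19.2% fell. The median log2 fold change was 0.33 over the subunits, -0.02 over all genes tested and 0.13 over these expressed protein-coding genes. The groups did not overlap, with shAC007128.1 above, in 43 subunits (27.0% of all genes tested did this) and, with shAC007128.1 below, in 8 (28.2% of all genes tested). Most changes were small. Of the 82 tested subunits, 5 rose by at least 2-fold, a share near the 5.57% of all genes tested. Only 2 fell by at least 2-fold, a smaller share than the 10.1% of all genes tested. The shares past 2-fold and of groups apart were not taken over expressed protein-coding genes. With shAC007128.1 replicate 3 left out 53 subunits rose, and with shCtrl replicate 2 left out 27 did. Calls over all genes moved too: 4306 of 20365 genes tested rose in the first of these fits and 3097 of 19894 in the second, against 4041 of 19254 in the main fit.

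**Figure D1:**
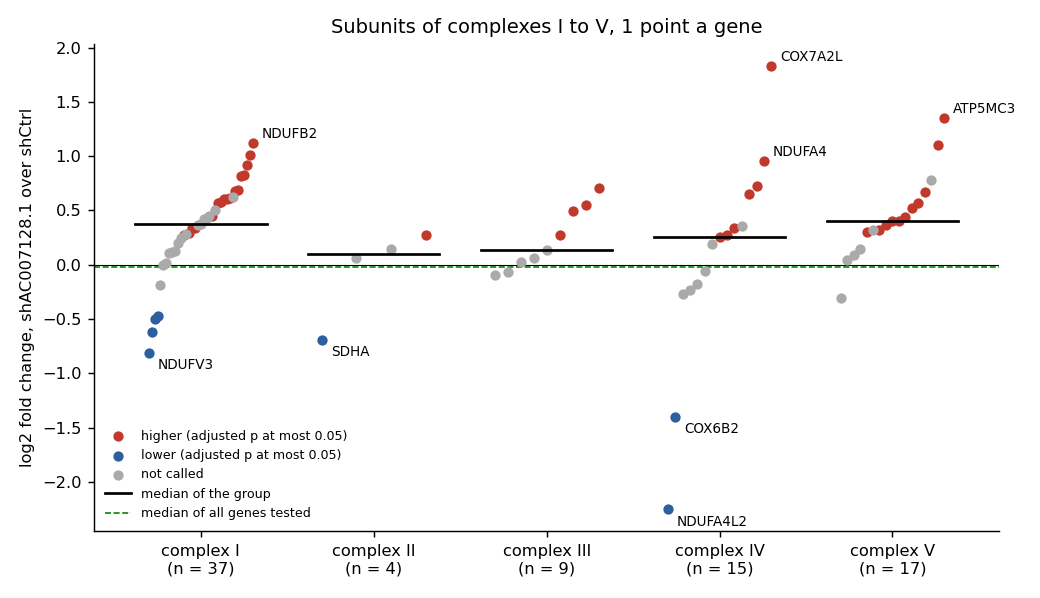
Log2 fold change (shAC007128.1 over shCtrl) of each tested subunit, by complex, with 1 point a gene, red for higher and blue for lower at an adjusted p of at most 0.05, grey for not called. Black bars are the medians of the groups (0.37, 0.10, 0.13, 0.26 and 0.40 for complexes I to V) and the dashed line is the median of all genes tested (-0.02); no complex III or V subunit was called lower.

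The complexes differed in how many of their subunits moved, and no test between them was made because subunits are not replicates. In complex V, 11 of 17 tested subunits rose and 0 fell (median log2 fold change 0.40). In complex I, 17 of 37 rose and 4 fell (median 0.37). In complex IV, 7 of 15 rose and 2 fell (median 0.26), and in complex III 4 of 9 rose and 0 fell (median 0.13). In complex II, 1 of 4 rose and 1 fell (median 0.10). The shares that rose were 45.9%, 25.0%, 44.4%, 46.7% and 64.7% for complexes I to V. Those that fell were 10.8%, 25.0%, 0%, 13.3% and 0%. Of expressed protein-coding genes 34.5% rose and 19.2% fell, and of all genes tested 21.0% and 19.8%. Relative to the shCtrl mean, the median subunit of complex I lay at log2 0.58, 0.42 and 0.13 in shAC007128.1 replicates 1, 2 and 3. That of complex V lay at 0.44, 0.35 and 0.35, and that of complex IV at 0.32, 0.25 and 0.04. That of complex III lay at 0.27, 0.19 and 0.17, and that of complex II at 0.10, 0.05 and 0.16. Replicate 3 was thus lowest for complexes I, III and IV, but not for complex V and complex II.

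Levels between genes were compared per length, as CPM per kilobase of the Ensembl canonical transcript, which depends on the annotated length. In shCtrl cells the median level was 50.6 CPM per kilobase for complex I, 73.0 for complex II, 66.8 for complex III, 104 for complex IV and 71.1 for complex V. COX6A1 and UQCRH stood highest at 413 CPM per kilobase each, followed by COX8A at 344 and the catalytic ATP synthase subunit ATP5F1B at 322. In shAC007128.1 cells the medians were 76.1, 78.3, 90.5, 122 and 94.0 for complexes I to V. The order of the complex medians below complex IV therefore differed between the groups, with ranges of subunits that overlapped throughout.

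Within complex I, all but 1 of the rises called in the main fit lay outside the module that binds NADH. NDUFB2, an accessory subunit of the membrane arm (chr7:140690777-140722790, plus strand, hg38), had 40.2, 37.7 and 35.5 CPM in shCtrl and 91.9, 78.0 and 76.1 CPM in shAC007128.1 replicates 1, 2 and 3. All 3 shAC007128.1 samples were above the controls (log2 fold change 1.12, standard error 0.10, edgeR adjusted p = 0.000219). NDUFB2 shares 35.9% of its exonic bases with other genes, among them ADCK2 and, on the other strand, BRAF, so part of its count is uncertain. NDUFA8, an accessory subunit facing the intermembrane space, had 37.5, 32.2 and 36.5 CPM against 86.1, 67.8 and 59.6 CPM (log2 fold change 1.01, standard error 0.15). Without shAC007128.1 replicate 1, the highest sample, its log2 fold change was 0.85. NDUFA9, which lies at the junction of the arms, rose from 71.5, 75.0 and 68.9 CPM to 133, 128 and 146 CPM (log2 fold change 0.92, standard error 0.08). NDUFAB1, the mitochondrial acyl carrier protein, rose from 72.1 to 76.5 CPM in shCtrl to 117 to 120 CPM (log2 fold change 0.69, standard error 0.07). NDUFC2 and NDUFB6 each rose by 0.82 on the log2 scale, NDUFC2 sharing exonic bases with the read-through gene NDUFC2-KCTD14.

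The 4 lower subunits of complex I lie in its matrix arm, which takes up electrons from NADH and passes them to quinone. Split by module (a grouping made after the values were seen), the NADH module held 1 subunit that rose and 3 that fell of 9, with a median log2 fold change of 0.019. The quinone module held 4 that rose and 1 that fell of 5 (median 0.61), and the other 23 subunits held 12 that rose and 0 that fell (median 0.42). Of expressed protein-coding genes 34.5% rose and 19.2% fell. NDUFV1, which binds FMN and accepts electrons from NADH, had 83.8, 78.0 and 74.8 CPM in shCtrl and 65.6, 60.2 and 45.0 CPM in shAC007128.1 (log2 fold change -0.47, standard error 0.14). NDUFV3 had 42.8, 41.4 and 39.9 CPM against 29.9, 15.6 and 25.1 CPM (log2 fold change -0.81, standard error 0.22). NDUFS4, an accessory subunit needed for a stable NADH module, had 32.2, 38.6 and 38.1 CPM against 20.0, 22.1 and 28.7 CPM (log2 fold change -0.62, standard error 0.15). The groups did not overlap for any of these 3 genes.

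Each of these 3 calls was lost when a sample was left out. Without shCtrl replicate 2 the edgeR adjusted p was 0.0833 for NDUFV1, 0.0586 for NDUFV3 and 0.0571 for NDUFS4, and without shCtrl replicate 3 it was 0.0655, 0.0535 and 0.0561. Without shCtrl replicate 1 it was 0.106 for NDUFV1 and 0.0643 for NDUFV3, and without shAC007128.1 replicate 2 it was 0.0598 for NDUFV1 and 0.0613 for NDUFS4. With the gene length offset the call of NDUFS4 was lost too (0.0927). The NADH module then held 0 that fell without shCtrl replicate 2 or 3, while its median log2 fold change was 0.0056 and 0.0051. Without shAC007128.1 replicate 3, 4 of its subunits rose and 3 fell. With DESeq2 3 of them rose and 3 fell, and with the canonical transcript length offset 3 rose and 1 fell. NDUFA2 (log2 fold change 0.62, standard error 0.22) and NDUFA12 (0.45, standard error 0.18) of this module had overlapping groups. Both were named after their values were seen, and neither was called in the main fit. NDUFS7, which carries the last iron-sulfur cluster before quinone, had 84.6, 79.4 and 80.0 CPM in shCtrl and 61.9, 58.5 and 52.6 CPM in shAC007128.1, and its call held in every alternative run (log2 fold change -0.50, standard error 0.09, edgeR adjusted p = 0.00369). Its counts are uncertain, since 51.4% of its exonic bases overlap other genes.

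NDUFS7 stood against its neighbours in the quinone module, where NDUFS3 and NDUFA5 rose by 0.61 and 0.68 on the log2 scale. NDUFA5 had 41.2, 46.0 and 43.9 CPM in shCtrl and 66.0, 67.6 and 76.8 CPM in shAC007128.1. The iron-sulfur core subunit NDUFS1, by contrast, had 97.5, 93.8 and 93.8 CPM against 92.9, 97.0 and 98.9 CPM, with overlapping groups and a log2 fold change of 0.02 (standard error 0.07) that was not called. NDUFA13 had the largest p in complex I: its shCtrl samples lay at 49.9 to 54.7 CPM, and shAC007128.1 replicates 1, 2 and 3 at 77.9, 55.4 and 23.0 CPM, above, near and below the controls.

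In complex II, SDHA fell while the other subunits did not. SDHA, the flavoprotein that oxidizes succinate (chr5:218303-257082, plus strand), had 85.7, 84.9 and 88.9 CPM in shCtrl and 59.2, 51.4 and 49.7 CPM in shAC007128.1. The groups were apart, and the call held in every alternative run (log2 fold change -0.69, standard error 0.09, edgeR adjusted p = 0.000949). SDHA shares 21.7% of its exonic bases with ENSG00000286001 and has near-identical pseudogene copies, so its counts are uncertain. The iron-sulfur subunit SDHB (0.06, standard error 0.07) and the membrane anchor SDHC (0.14, standard error 0.08) had overlapping groups and were not called. The second anchor, SDHD, had 138, 118 and 121 CPM against 153, 141 and 161 CPM, at the edge of the threshold (log2 fold change 0.27, standard error 0.09, edgeR adjusted p = 0.048). Its call was lost without shCtrl replicate 2 (adjusted p = 0.174), shCtrl replicate 3 (0.158), shAC007128.1 replicate 1 (0.108) or shAC007128.1 replicate 3 (0.0852). It was also lost with DESeq2 (0.0513), DESeq2's size factors (0.0566), library size only (0.0998), the replicate block (0.0654) and the GC content offset (log2 fold change 0.12, adjusted p = 0.269), and was kept in 7 of 19 alternatives.

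In complex III, UQCRQ, UQCR10, UQCRB and UQCRFS1 rose and the other subunits were not called. The core proteins UQCRC1 and UQCRC2 (log2 fold changes 0.13 and 0.06), the cytochrome c1 gene CYC1 (-0.06) and the hinge protein UQCRH (0.03) all had overlapping groups and were not called. The small subunit UQCRQ had 89.4, 88.4 and 84.8 CPM in shCtrl and 154, 136 and 136 CPM in shAC007128.1 (log2 fold change 0.70, standard error 0.08, edgeR adjusted p = 0.000492). UQCR10 had 46.9, 45.9 and 47.4 CPM against 79.8, 70.2 and 54.7 CPM. The Rieske iron-sulfur protein UQCRFS1 had 110, 109 and 103 CPM against 131, 129 and 130 CPM, a small and tight rise (log2 fold change 0.27, standard error 0.07, edgeR adjusted p = 0.0142). Its call was lost without shCtrl replicate 2 (adjusted p = 0.0558) or 3 (0.0714), and that of UQCR10 without shCtrl replicate 1 (0.0548), 2 (0.0612) or 3 (0.0528). UQCRB (log2 fold change 0.49, standard error 0.13) lost its call in the same fits, at adjusted p of 0.0623, 0.0573 and 0.0689, and with the GC content offset (0.150). CYCS, the soluble carrier between complexes III and IV, had 291, 288 and 199 CPM against 262, 361 and 362 CPM and was not called (log2 fold change 0.34, standard error 0.18, adjusted p = 0.175).

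Complex IV held both the largest rise and the largest falls among the subunits, all in genes with a paralog. NDUFA4 (chr7:10931943-10940153, minus strand) had 79.4, 78.5 and 76.2 CPM in shCtrl and 153, 149 and 151 CPM in shAC007128.1, with little spread in either group (log2 fold change 0.95, standard error 0.06, edgeR adjusted p = 6.61e-05). Its paralog NDUFA4L2, a known target of hypoxia signaling (chr12:57234903-57240715, minus strand), moved the other way. It had 5.49, 5.52 and 5.75 CPM in shCtrl and 2.12, 0.692 and 0.705 CPM in shAC007128.1, from 390 to 444 counts and 38 to 119 counts (log2 fold change -2.25, standard error 0.44, edgeR adjusted p = 0.00586). Per kilobase, NDUFA4L2 made up 13.4% ± 0.542 (SD, n = 3) of the summed level of this pair in shCtrl and 1.63% ± 1.10 (SD, n = 3) in shAC007128.1. C15orf48, another paralog of NDUFA4 (named after its values were seen), had at most 8 counts in any sample.

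COX7A2L, known for its part in joining complexes III and IV into supercomplexes (chr2:42333546-42425088, minus strand), had 17.4, 17.8 and 18.2 CPM in shCtrl. In shAC007128.1 replicates 1, 2 and 3 it had 25.6, 86.7 and 77.4 CPM, so replicate 1 lay much nearer the controls than the other two (log2 fold change 1.83, standard error 0.40, edgeR adjusted p = 0.00968). Without replicate 1 the log2 fold change was 2.20. Its paralog COX7A2 moved far less (0.27, standard error 0.07), and COX7A2L went from 6.38% ± 0.240 (SD, n = 3) to 16.4% ± 8.02 (SD, n = 3) of the summed COX7A level per kilobase. COX6B2, an isoform known from testis, had 2.73, 3.05 and 2.83 CPM in shCtrl and 0.854, 1.60 and 0.809 CPM in shAC007128.1 (log2 fold change -1.40, standard error 0.30, edgeR adjusted p = 0.00878). COX6B2 had only 48 to 88 counts in shAC007128.1 and shares 29.1% of its exonic bases with ENSG00000267706, so its counts are uncertain. The common isoform COX6B1 held 98.6% and 99.6% of that pair in shCtrl and shAC007128.1 and was not called. COX4I2, COX6A2 and COX7B2 had 0 counts in all 6 samples, and COX8C had 3 or fewer, so COX4I1, COX6A1, COX7B and COX8A stood for their families.

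Among the other subunits of complex IV, COX7B and COX6C rose by 0.72 and 0.65 on the log2 scale. COX7C was called at 0.33, but not without shCtrl replicate 2 (edgeR adjusted p = 0.0576) or with the GC content offset (log2 fold change 0.16, adjusted p = 0.143). COX7B had 49.9, 51.6 and 45.0 CPM in shCtrl and 76.4, 79.3 and 86.2 CPM in shAC007128.1. COX4I1 and COX7A2 were called at log2 fold changes of 0.26 and 0.27, but both calls were lost without any 1 of shCtrl replicates 1, 2 and 3 (adjusted p of 0.10, 0.108 and 0.145 for COX4I1, and of 0.0798, 0.0732 and 0.0906 for COX7A2). Without shAC007128.1 replicate 1 they were 0.0978 and 0.0596, and without replicate 2 that of COX4I1 was 0.107. Over all 19 alternatives COX4I1 kept its call in 8 and COX7A2 in 10. COX5A (0.19), COX5B (-0.27), COX6A1 (-0.23) and COX8A (-0.06) were not called.

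**Figure D2:**
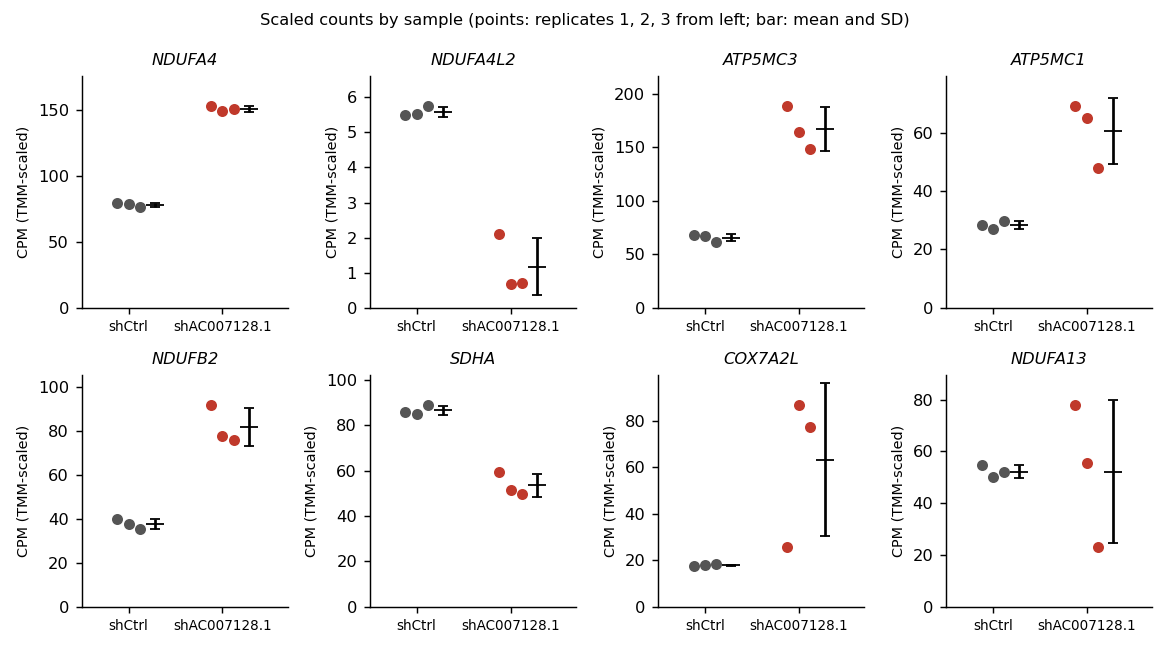
TMM-scaled CPM of 8 subunit genes in each sample, grey for shCtrl and red for shAC007128.1, replicates 1, 2 and 3 from left to right, with the mean and SD of each group as a black bar. NDUFA4 samples sit at 76.2 to 79.4 and 149 to 153 CPM, while COX7A2L and NDUFA13 spread from 25.6 to 86.7 and from 23.0 to 77.9 CPM among the shAC007128.1 samples.

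In complex V, ATP5MC1, ATP5MC2 and ATP5MC3 encode the same mature protein, the subunit of the rotating c-ring, from separate genes. ATP5MC3 (chr2:175176258-175181710, minus strand) had 68.0, 67.1 and 61.5 CPM in shCtrl and 188, 164 and 148 CPM in shAC007128.1 (log2 fold change 1.35, standard error 0.10, edgeR adjusted p = 0.000109). ATP5MC1 had 28.3, 26.9 and 29.6 CPM against 69.0, 65.1 and 47.8 CPM (log2 fold change 1.10, standard error 0.14, edgeR adjusted p = 0.000982). ATP5MC2 had 113, 104 and 66.4 CPM against 101, 105 and 86.3 CPM and was not called (log2 fold change 0.04, standard error 0.19). The share of ATP5MC2 in the summed level of the 3 genes per kilobase was 67.6% ± 6.47 (SD, n = 3) in shCtrl and 49.4% ± 2.15 (SD, n = 3) in shAC007128.1, while that of ATP5MC3 was 11.8% ± 1.62 and 20.7% ± 1.29. Of the 5 subunits past 2-fold, ATP5MC3, NDUFB2 and COX7A2L stayed so without shAC007128.1 replicate 1, and ATP5MC1 came to 0.99.

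In the rest of the ATP synthase, values differed from subunit to subunit, without a split between the catalytic head and the central stalk. ATP5F1B, the beta subunit, had 576, 562 and 562 CPM in shCtrl and 619, 626 and 630 CPM in shAC007128.1, groups that were apart but not called (log2 fold change 0.14, standard error 0.05, adjusted p = 0.0595). The alpha subunit ATP5F1A was called at 0.32 (standard error 0.07), but not without shCtrl replicate 1 (adjusted p = 0.053) or 3 (0.0579), nor with the gene length offset (0.060). In the central stalk ATP5F1C rose by 0.40, while ATP5F1E (0.09) and ATP5F1D (-0.31), the one complex V subunit below 0, were not called. In the peripheral stalk, ATP5PF had 77.5, 76.0 and 74.0 CPM against 124, 121 and 116 CPM (log2 fold change 0.67, standard error 0.07, edgeR adjusted p = 0.000352), ATP5PB rose by 0.52 and ATP5PO by 0.57. ATP5PD was called at 0.36, but not without shCtrl replicate 2 (adjusted p = 0.0503). ATP5PF shares 37.3% of its exonic bases with GABPA and JAM2 on the other strand. ATP5MF had 42.9, 35.4 and 32.7 CPM against 85.2, 72.1 and 33.5 CPM, with replicate 3 among the controls, and was not called.

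That low replicate 3 recurred in short genes. Of the 36 tested subunits with a canonical transcript under 700 bases (a limit set after the values were seen), shAC007128.1 replicate 3 was the lowest of its group in 27 (75.0%), against 22 of the 46 longer ones (47.8%). The median coefficient of variation among the shAC007128.1 samples was 16.3% for the short subunits and 7.42% for the longer ones, and 5.16% and 3.85% among the shCtrl samples. Short genes of all kinds did the same: of 206 protein-coding genes with at least 10 CPM and a transcript under 700 bases, replicate 3 was lowest in 155 (75.2%), against 41.4% of longer genes. Of the short subunits 14 rose, 1 fell and 21 were not called, and of the longer ones 26 rose, 6 fell and 14 were not called. The shares that rose were 38.9% and 56.5%, against 34.5% of expressed protein-coding genes. Those that fell were 2.78% and 13.0%, against 19.2%. Of these 9702 expressed genes 9496 have a transcript of 700 bases or more, and no share was taken over the 206 short ones alone. With a gene length offset in the fit, 49 of the 82 subunits rose and 6 fell, with 21 of the 36 short ones higher. The part of transcript length in the single calls was not tested further.

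**Figure D3:**
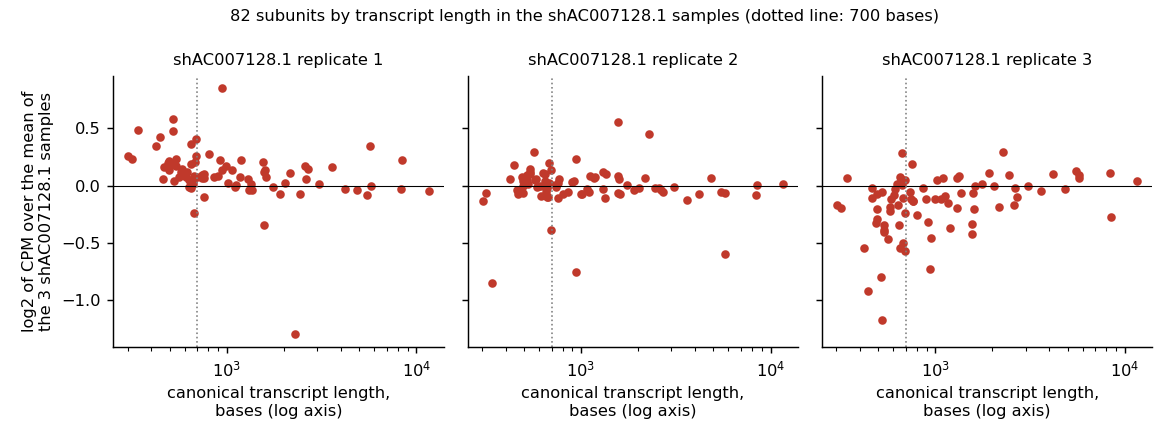
Log2 of each subunit's CPM over the mean of the 3 shAC007128.1 samples, by canonical transcript length in bases (log axis), with 1 panel for each shAC007128.1 sample, 1 point a gene for the 82 tested subunits, and a dotted line at 700 bases. Left of the line the medians are 0.17, 0.02 and -0.19 in replicates 1, 2 and 3; right of it they are 0.07, -0.02 and -0.06.

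Many of these genes overlap others, and the strand setting of the counts is not given in the sources used here. Of the 31 tested subunits that share over 10% of their exonic bases with another gene, 14 rose and 4 fell (45.2% and 12.9%). Of the 51 that share at most 10%, 26 rose and 3 fell (51.0% and 5.88%). Of expressed protein-coding genes 34.5% rose and 19.2% fell. Several families also have processed pseudogenes, between which reads can be split. Of the 99 genes, COX4I2, COX6A2, COX7B2, COX8C, ATP5MGL and ATP5MF-PTCD1 did not pass the filter. UQCRHL had 0.344 to 0.888 CPM and NDUFC2-KCTD14 0.059 to 1.07 CPM, and neither was called.

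The proteins that assemble the complexes moved in both directions. Over 63 assembly factors listed for the 5 complexes, 17 rose and 17 fell (27.0% each, against 34.5% and 19.2% of expressed protein-coding genes and 21.0% and 19.8% of all genes tested), with a median log2 fold change of 0.11. For complex I 4 of 19 rose and 4 fell. NDUFAF3 had 82.0, 73.7 and 75.0 CPM in shCtrl and 46.5, 43.3 and 41.7 CPM in shAC007128.1 (log2 fold change -0.81, standard error 0.09, edgeR adjusted p = 0.000388), while NDUFAF6 rose by 0.74. NDUFAF2 was called at 0.31, but only the fit without shAC007128.1 replicate 3 kept that call among those that left out a sample (edgeR adjusted p of 0.0684 to 0.0938 in the other 5). TMEM186 fell by 1.16 on the log2 scale. For complex III 1 of 10 rose and 4 fell (median -0.39), with LYRM7, which helps insert the Rieske protein, at -0.71. For complex II SDHAF2, which helps attach FAD to SDHA, rose by 0.70, and SDHAF3 fell by 0.91. For complex IV 9 of 24 rose and 7 fell, from COX16 at 1.21 to SURF1 at -0.92. For complex V 2 of 6 rose and 0 fell, namely ATPAF1 (0.68) and ATPAF2 (0.83), the chaperones of its beta and alpha subunits.

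Of the 13 protein-coding genes of the mitochondrial genome, which supply the partner subunits of complexes I, III, IV and V, 6 rose (46.2%) and 0 fell, against 34.5% and 19.2% of expressed protein-coding genes. Of these, 5 rose by between 0.17 (MT-CO3) and 0.41 (MT-CYB) on the log2 scale. MT-ATP6 stood apart, with 1702, 1530 and 1555 CPM in shCtrl and 7361, 7250 and 9077 CPM in shAC007128.1 (log2 fold change 2.31, standard error 0.10, edgeR adjusted p = 1.73e-05). MT-ATP8, which overlaps it and lies on the same transcript, had 774, 983 and 905 CPM against 1334, 938 and 1653 CPM and was not called (0.56, standard error 0.20).

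Of the 17 tested regulators of mitochondrial biogenesis, 5 rose (29.4%) and 1 fell (5.88%). The share that rose lies between that of all genes tested (21.0%) and that of expressed protein-coding genes (34.5%). The transcription factor YY1 had 155, 158 and 157 CPM in shCtrl and 227, 227 and 262 CPM in shAC007128.1 (log2 fold change 0.61, standard error 0.08). Letters of its motif were in 28.0% of the matched subunit promoters and 5.55% of all promoters. Its binding was not measured, and its part in the subunit values was not tested. The coactivator PPARGC1B rose by 0.53. NRF1, nuclear respiratory factor 1, was called near the threshold, at 0.38 (standard error 0.12, edgeR adjusted p = 0.0397). TFAM (0.05) and GABPA (0.14) were not called, and PPARGC1A had at most 0.123 CPM. POLG2, the accessory subunit of the mitochondrial DNA polymerase, fell by 0.58. In the tricarboxylic acid cycle and its entry enzyme, 7 of 17 genes rose (41.2%) and 4 fell (23.5%), against 34.5% and 19.2% of expressed protein-coding genes, among them PDHX at 1.09 and DLST at -1.06. Of the 6 ADP/ATP carriers and porins 4 rose, with VDAC3 at 1.14, and SLC25A6 fell by 0.37 (standard error 0.12, edgeR adjusted p = 0.0413).

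**Figure D4:**
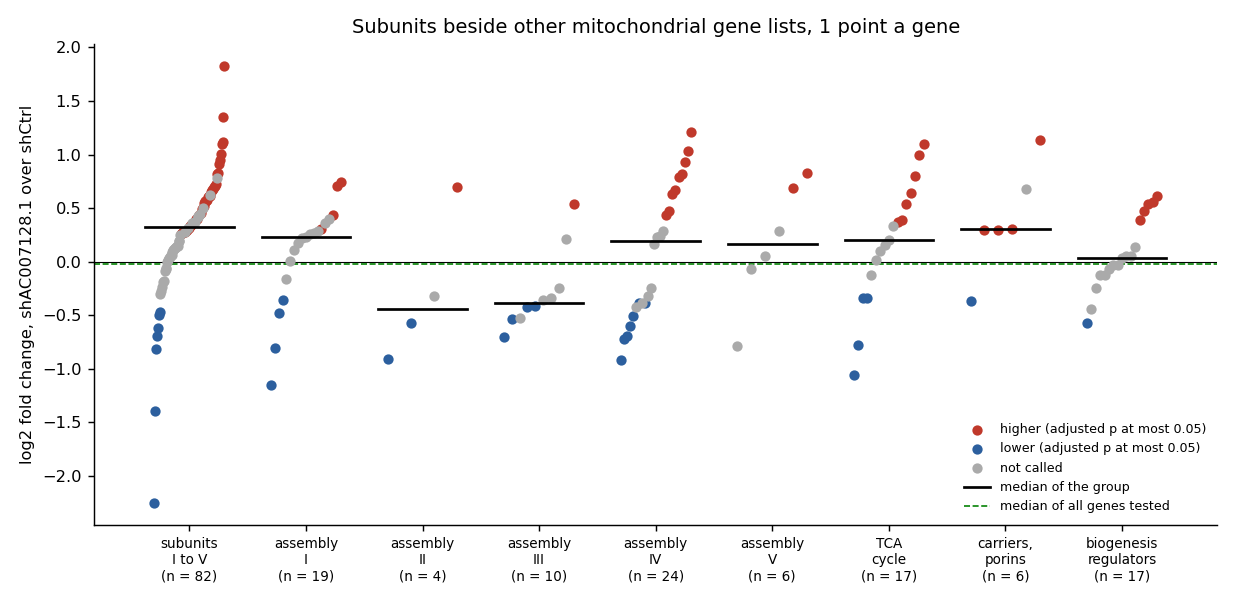
Log2 fold change (shAC007128.1 over shCtrl) of the 82 subunits beside assembly factors of complexes I to V, tricarboxylic acid (TCA) cycle genes, carriers and porins, and biogenesis regulators, 1 point a gene, colored by call, with the group median as a bar. The subunit median is 0.33, while the medians of the assembly factors for complexes II and III are -0.45 and -0.39.

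Some promoters of these genes hold short motifs. RefSeq promoters (GRCh38.p14, 250 bases before to 50 after the start site) were matched for 69 of the 87 subunits, with 82 promoters. Their shares are set beside all RefSeq promoters, and no share was taken over promoters of expressed genes alone. On either strand, the letters GCGCATGC of an NRF1 motif were in 18.3% of them and in 3.05% of all 35116 promoters. The YY1 letters ATGGCGG were in 28.0% against 5.55%, the ETS letters CCGGAAG, of the family that includes GABPA, in 26.8% against 10.3%, and the SP1 letters GGGCGG, which can overlap the YY1 letters, in 61.0% against 45.0%. By call, with no test, the NRF1 letters were in 6 of 38 promoters of subunits that rose, 1 of 6 of those that fell and 8 of 35 of those not called, and the YY1 letters in 10 of 38, 3 of 6 and 10 of 35. The stretches below show the NRF1 letters, in capitals, upstream of 3 subunits that rose and of NDUFS7, which fell, each read 5′ to 3′ on the strand of its gene. They lie at chr10:7788125-7788176 (plus strand), chr7:123557939-123558006 (minus), chr21:25735137-25735204 (minus) and chr19:1383804-1383871 (plus), and NDUFS7 holds the letters in reverse complement.
ATP5F1C: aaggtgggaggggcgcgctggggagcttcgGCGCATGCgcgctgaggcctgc
NDUFA5: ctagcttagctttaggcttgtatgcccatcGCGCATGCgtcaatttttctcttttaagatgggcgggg
ATP5PF: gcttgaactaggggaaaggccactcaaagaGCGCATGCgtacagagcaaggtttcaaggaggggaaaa
NDUFS7: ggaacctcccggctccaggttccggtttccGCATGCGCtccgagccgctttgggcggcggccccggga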

How the data were processed

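Poly-A RNA of 6 KYSE150 samples was made into paired-end TruSeq libraries by the authors. They filtered out rRNA, adapters and poor reads before alignment to hg38 with TopHat. The submitters' processing notes list TopHat2 2.0.6 and CASAVA 1.8. The values deposited by the authors are estimated counts for each Ensembl gene, whole in the table and without normalization. The counting program, annotation and use of strand are not given in the sources used here. Multiples of 4 are over-represented at low values. All 6 columns were mapped by titles and descriptions in the labels and 0 were left unmapped. The labels' treatment text names shAC007128.1 for every sample, controls included, and was not used for grouping.

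Symbols, positions, lengths and overlaps came from GENCODE v44 on hg38, which held 60357 of 67140 identifiers. Genes passing filterByExpr were scaled by TMM. The quasi-likelihood test of edgeR 4.0.16 (glmQLFit, glmQLFTest, R 4.3.3) was run over all 19254, without covariates, with Benjamini-Hochberg adjustment. The standard error is the log2 fold change over the root of F. Scaled CPM use the same factors. Floors of 3 counts cover counting error only. The targeted gene is the one whose annotated transcripts hold the hairpin's sense stretch. The fit was tested on simulated counts.

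Members, lists and markers were chosen with earlier results of these data known. Named are subunits past the threshold and 2-fold, the 3 smallest and the largest p in each complex, fixed core subunits, isoform families, and the 3 smallest p of each list; NDUFV3, NDUFS3, NDUFS4, NDUFS7, NDUFA5, NDUFB6, NDUFC2, UQCRB, COX5A, COX5B, COX7C, ATP5MF, ATP5F1C, ATP5F1D, ATP5F1E, ATP5PD, ATP5PO, NDUFAF2, NDUFAF6, MT-CO3, MT-CYB, MT-ATP8, NRF1, TFAM, GABPA, PPARGC1A and SLC25A6 were added after their values were seen. Alternatives were DESeq2 1.42.0, limma-voom (limma 3.58.1), scaling by DESeq2's size factors or by library size alone, filters of 10 counts in each sample or none, the replicate block, length and GC offsets, glmTreat against a fold of 1.2, and each sample left out. Counts divided by 4 and the canonical length offset were chosen after seeing the data. Some genes of these lists are not reported here.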

Additional observations from a re-analysis of the deposited data

How the results depend on the processing

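Over 19 alternatives, 24 of the 40 subunits that rose and 4 of the 7 that fell (SDHA, NDUFS7, NDUFA4L2 and COX6B2) kept their call in every one, 26 and 4 in every fit that left out a sample, and 0 changed sign. With a sample left out, 27 to 53 subunits rose, 4 to 7 fell, 3 to 6 rose by 2-fold and 2 to 3 fell by 2-fold. Over all genes tested, 3092 to 4306 rose and 2854 to 4152 fell in these fits, against 4041 and 3820 in the main fit. Testing against a fold of 1.2 left 24 subunits that rose, and 2888 of all 19254 genes tested. The median log2 fold change of the subunits was 0.29 to 0.37 with a sample left out, 0.25 with library size only, 0.27 without a filter, 0.42 with the gene length offset, 0.42 with the replicate block and that offset, and 0.44 with the canonical length offset, an alternative chosen after seeing the data. Without a filter the median of all genes moved from -0.02 to -0.15. Same-numbered samples did not deviate together (correlations 0.031, -0.025 and -0.03), so the numbers were not taken as pairs. The replicate block left 34 subunits that rose and 7 that fell, and over all genes tested 3524 and 3256. The cause of these shifts was not tested.

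Uncalled subunits near 0 changed sign. With library size only, ATP5MC2 was at -0.028, NDUFS1 at -0.055, SDHB at -0.013, UQCRC2 at -0.013 and UQCRH at -0.043, and without a filter ATP5MC2 was at -0.0032, NDUFS1 at -0.024 and UQCRH at -0.014. With at least 10 counts in every sample NDUFS1 was at -0.014 and UQCRH at -0.0044. With the gene length offset COX8A was at 0.078, CYC1 at 0.11, NDUFA13 at 0.10 and NDUFS1 at -0.11. With the GC offset COX7A1 was at 0.074, COX8A at 0.11, CYC1 at 0.20, NDUFA13 at 0.18, NDUFS1 at -0.073 and UQCRC2 at -0.12. With the replicate block and the length offset COX7A1 was at 0.085, COX8A at 0.072, CYC1 at 0.094 and NDUFS1 at -0.11. With the canonical length offset COX8A was at 0.081, CYC1 at 0.077, NDUFA13 at 0.12 and NDUFS1 at -0.19. With a sample left out the ranges were -0.16 to 0.19 for ATP5MC2, -0.57 to 0.34 for COX7A1, -0.16 to 0.031 for COX8A, -0.20 to 0.082 for CYC1, -0.42 to 0.34 for NDUFA13, -0.0094 to 0.043 for NDUFS1, -0.0053 to 0.10 for UQCRC2 and -0.10 to 0.19 for UQCRH. Depth limits NDUFA4L2, COX6B2 and COX7A1 most, with at most 444 counts a sample.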
